A study of Rattus norvegicus with 3 samples.

Results

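Notch receptors, their ligands and 2 of their target genes were measured in single-nucleus RNA-seq of the rat heart apex, with 1 library of each genotype (WT, BMD and DMD), all from animals aged 12 months. The members were taken by name from the gene list of the files: the receptors Notch1, Notch2, Notch3 and Notch4, the ligands Dll1, Dll4, Jag1 and Jag2, and the targets Hey1 and Hey2. All 10 were found once each among 22250 genes, as ENSRNOG00000019322, ENSRNOG00000018835, ENSRNOG00000004346, ENSRNOG00000000442, ENSRNOG00000059984, ENSRNOG00000014011, ENSRNOG00000007443, ENSRNOG00000013927, ENSRNOG00000011593 and ENSRNOG00000013364 in that order. WT rats are wild-type at Dmd, the gene of dystrophin. BMD rats (R-BMDdel45-47) have lost Dmd exons 45–47, which keeps the reading frame, and are a model of Becker muscular dystrophy. DMD rats (R-DMDdel52) lack exon 52 and are a model of Duchenne muscular dystrophy. The study describes apexes dissected fresh, with part of the septum and of both ventricles, and the number of rats behind each library is not given in the sources used here. With these 3 libraries no test between genotypes was possible, and the genotype cannot be told apart from the rat, the dissection or the library.

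Notch signalling passes between touching cells. A ligand of the Delta-like or Jagged family on one cell binds a Notch receptor on its neighbour, the receptor is cut, and its intracellular part enters the nucleus, where it joins the DNA-binding protein RBPJ and switches on targets such as the Hes and Hey repressors. In blood vessels the pathway is best known for arterial identity, for the choice between tip and stalk cells in growing sprouts, and for the contact between endothelial cells and the pericytes and smooth muscle that wrap them. The members fall into parts of that exchange: Notch1 and Notch4 are the endothelial receptors, Notch3 is the receptor of mural cells, Dll4 and Jag2 are made mainly by endothelium, and Jag1 is made by endothelium and mural cells.

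RBPJ binds DNA at sites with the core TGGGAA, so promoters of target and ligand genes were read for it. RefSeq windows of 300 bases, from 250 before to 50 after a gene's start (build GRCr8), matched 8 of the 10 members in 9 windows, and Dll4 and Hey1 were not matched. TGGGAA stood on either strand in 4 of the 9 windows, those of Notch3, Notch4, Dll1 and Hey2, against 25.7% of 33365 windows of all genes. The longer form GTGGGAA, which contains the shorter one, stood in 2 of them, those of Dll1 and Hey2, against 6.29% of all windows. These letters describe the windows only, and binding was not measured. Among other targets, the window of Hes1 held TGGGAA and those of Heyl and Nrarp did not. The windows of the target Hey2, of Hes1, the best known other target, and of the ligand Dll1 are given here, 5′ to 3′ on the strand of the gene. Each of them holds GTGGGAA, so they do not stand for the promoters of all targets. The capitals mark TGGGAA or, on the other strand, TTCCCA.
Hey2, GRCr8, chr1:28640850-28641149, plus strand: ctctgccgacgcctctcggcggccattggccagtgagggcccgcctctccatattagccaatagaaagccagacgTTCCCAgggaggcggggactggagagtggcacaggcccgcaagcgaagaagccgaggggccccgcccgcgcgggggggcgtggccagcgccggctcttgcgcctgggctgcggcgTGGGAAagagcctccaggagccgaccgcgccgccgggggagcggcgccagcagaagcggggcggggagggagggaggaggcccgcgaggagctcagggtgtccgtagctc
Hes1, GRCr8, chr11:84212996-84213295, minus strand: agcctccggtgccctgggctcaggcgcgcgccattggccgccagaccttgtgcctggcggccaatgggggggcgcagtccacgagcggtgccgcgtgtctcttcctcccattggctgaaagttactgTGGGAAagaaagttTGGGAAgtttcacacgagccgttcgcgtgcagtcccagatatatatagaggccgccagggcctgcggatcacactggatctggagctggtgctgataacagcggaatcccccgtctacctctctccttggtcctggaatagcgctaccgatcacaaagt
Dll1, GRCr8, chr1:64993225-64993524, minus strand: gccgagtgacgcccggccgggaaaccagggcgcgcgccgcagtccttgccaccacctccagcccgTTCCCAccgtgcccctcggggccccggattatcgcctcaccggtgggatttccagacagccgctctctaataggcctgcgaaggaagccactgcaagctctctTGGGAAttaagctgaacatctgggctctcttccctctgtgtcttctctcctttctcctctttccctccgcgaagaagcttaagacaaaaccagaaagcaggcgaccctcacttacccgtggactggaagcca
In Hes1 both copies lie on the strand of the gene, starting 123 and 109 bases before its start. In Hey2 the copy on the gene's strand starts 60 bases before the start, and the reverse copy 175 bases before it. In Dll1 the forward copy starts 82 bases before the start and the reverse copy 185 bases before it.

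The 3 libraries held between 19215994 and 21609238 UMIs (unique molecules counted) over all barcodes, and 24664 barcodes were taken as nuclei, with a median of 1212.5 to 1486.5 UMIs each. Nuclei were clustered without the members and without the other genes of the Notch pathway, and 9 classes were named from fixed markers: 4941 endothelial, 597 endocardial, 638 lymphatic, 1658 mural, 7424 fibroblast, 4606 cardiomyocyte and 1912 macrophage nuclei, with smaller classes of monocytes or neutrophils and of T, NK or B cells. The 9 endothelial markers matched summed to between 9926 and 10583 CPM (the UMIs of a gene over all UMIs of a group of nuclei, scaled to a common total) in endothelial nuclei of each library, and the 8 pericyte markers to between 10267 and 11279 CPM in mural nuclei. The classes were named from these markers, so the sums describe them only. The monocyte or neutrophil class was 46.1% predicted doublets, and free RNA, the RNA found in barcodes of at most 50 UMIs, could account for all of its cardiomyocyte markers. The comparisons between genotypes used the first 7 of these classes. Dmd itself stood at 16457, 20575 and 19552 CPM in the cardiomyocytes of the WT, BMD and DMD libraries, and a count per gene cannot show the deletion of exons. The libraries shared 12 to 20 barcodes in pairs. Where 3 values stand together, they are those of WT, BMD and DMD in that order. All intervals are at 95% and cover counting error only, not the difference between rats.

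The receptors differed in the cell types that held most of them. Notch3, the mural receptor, stood at 1272, 985 and 1176 CPM in pericyte-like nuclei. In smooth muscle-like nuclei Notch3 was at 1167, 876 and 1111 CPM in the same order of libraries. The ranges of pericyte-like and smooth muscle-like nuclei overlapped, and the next group, T, NK or B cells, was at most 41.7 CPM. Mural nuclei held 84.7% of the 2064 Notch3 UMIs in the data. After each nucleus was thinned to 500 UMIs, 42.6% of WT mural nuclei had a Notch3 UMI (exact interval 38.9 to 46.3%). The BMD share was 37.9% (33.4 to 42.6%) and the DMD share 39.0% (34.8 to 43.4%), with intervals that overlapped. In fibroblasts, which should lack Notch3 and have median depths of 1216 to 1590.5 UMIs against 802 to 990 in mural nuclei, the thinned shares were 0.313%, 0.306% and 0.440%. Unthinned, the mural shares of Notch3 were 60.3%, 54.9% and 58.4%.

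**Figure D1:**
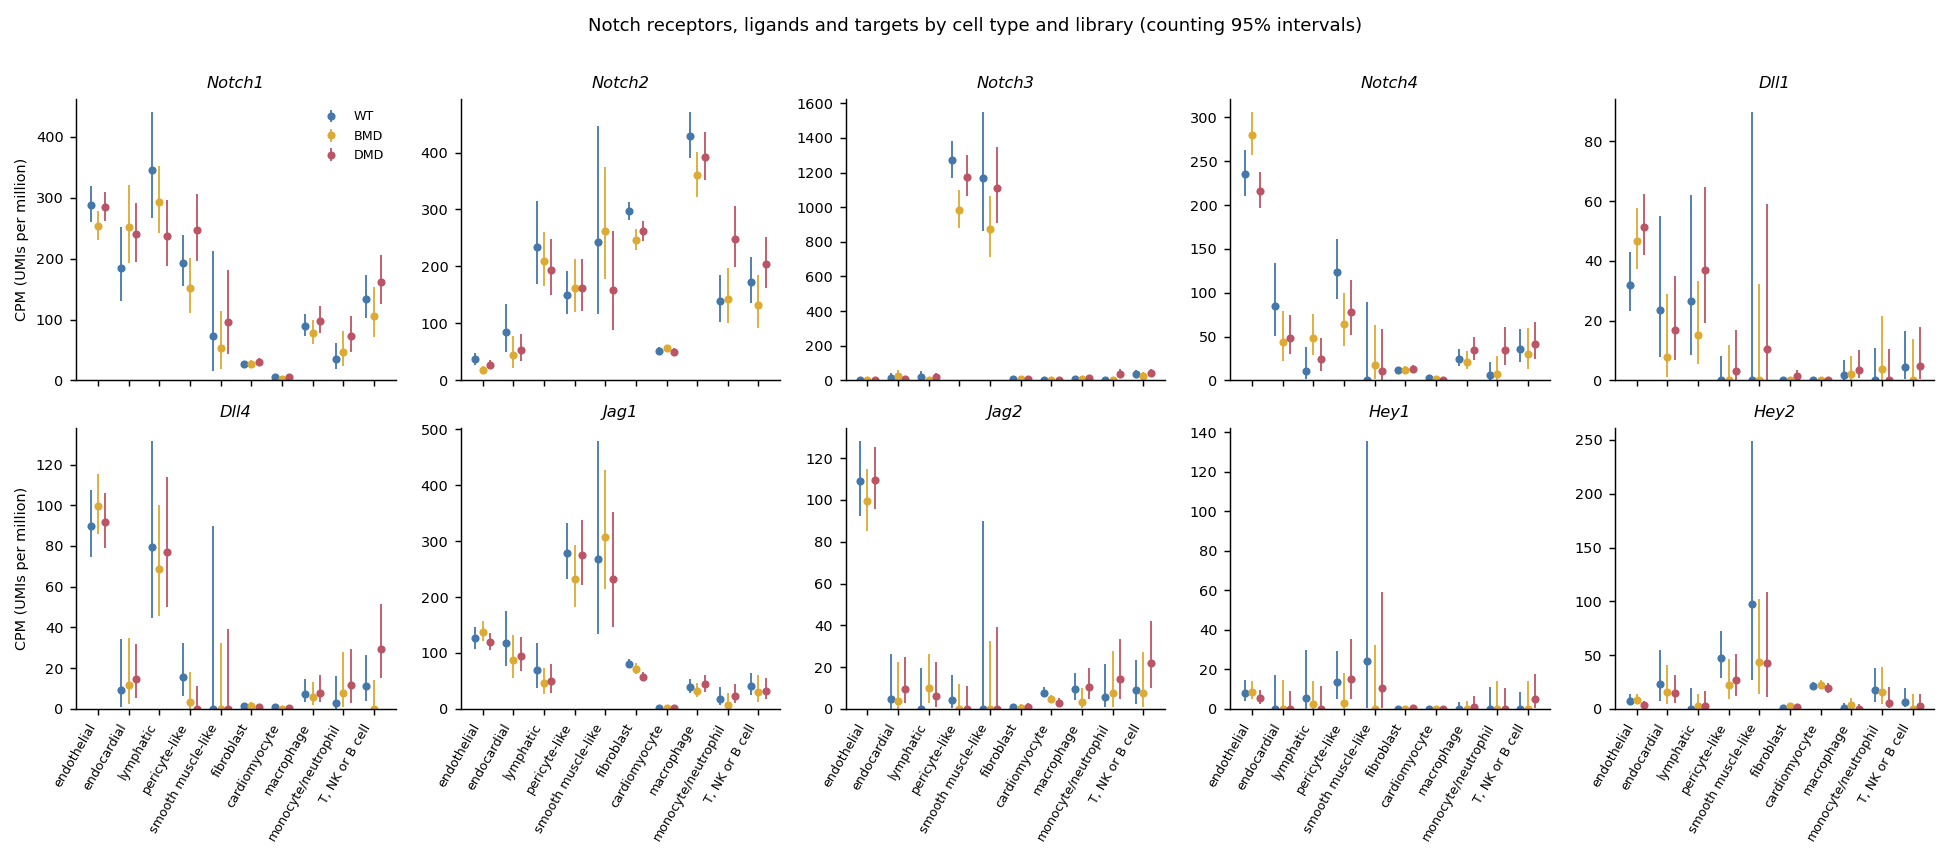
Level of each member in CPM (vertical axis) in 10 groups of nuclei, with 1 point per library (WT blue, BMD yellow, DMD red) and exact Poisson 95% intervals. Notch3 stands at 876 CPM or more in pericyte-like and smooth muscle-like nuclei and at 41.7 CPM or less in every other group shown, while Notch4, Dll1, Dll4 and Jag2 are highest in endothelial nuclei in all 3 libraries.

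Notch4, the receptor most restricted to endothelium, was at 236, 280 and 216 CPM in endothelial nuclei. Pericyte-like nuclei came next, at 124, 64.6 and 78.4 CPM, and their range did not overlap with that of endothelium. Endocardial nuclei had 85.1, 43.9 and 48.5 CPM of Notch4, within the range of pericyte-like nuclei or below it. Endothelial nuclei held 64.3% of all Notch4 UMIs. Thinned to 500 UMIs, shares of endothelial nuclei with a Notch4 UMI were 11.2% (9.66 to 12.9%), 12.4% (10.8 to 14.2%) and 10.1% (8.76 to 11.5%), against 0.654%, 0.917% and 0.528% of fibroblasts. Median depths were 792 to 1085 UMIs in endothelial and 1216 to 1590.5 in fibroblast nuclei, and the unthinned endothelial shares were 17.3%, 26.0% and 19.7%.

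Notch1 was less restricted. Its levels in lymphatic nuclei were 346, 293 and 237 CPM. In blood endothelium Notch1 was at 289, 253 and 285 CPM, and the ranges of the 2 groups overlapped. Endocardial nuclei, which line the ventricles, were at 184, 252 and 240 CPM, a range that ended just below that of blood endothelium. Pericyte-like nuclei were at 193, 152 and 247 CPM, and T, NK or B cells at 134, 106 and 162 CPM. Macrophages were at 89.7, 77.9 and 98.2 CPM. Cardiomyocytes held 2.41 to 5.20 CPM of Notch1, less than the 6.02 to 11.0 CPM that free RNA would give them.

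Notch2 was widely spread over macrophages, fibroblasts, mural and lymphatic nuclei. Macrophages were highest in each library, at 430, 360 and 392 CPM. Fibroblasts were at 297, 247 and 261 CPM, below the range of macrophages, and held 46.3% of its 6606 UMIs. Smooth muscle-like nuclei were at 243, 263 and 159 CPM, overlapping with fibroblasts and above them in BMD. Lymphatic nuclei had 234, 209 and 194 CPM of Notch2, whereas blood endothelium had only 37.1, 18.1 and 26.9 CPM, of which free RNA would give 8.80, 11.0 and 16.9 CPM. The linings of lymphatics and of blood vessels thus stood apart in this receptor in every library. Notch4 stood apart the other way, at 10.6, 48.5 and 24.7 CPM in lymphatic nuclei, or 2, 19 and 8 UMIs.

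Of the ligands, Dll4, the ligand of arterial and sprouting endothelium, was at 89.8, 99.9 and 91.7 CPM in endothelial nuclei. Lymphatic nuclei were close behind, at 79.8, 68.9 and 77.1 CPM, and their range ended below that of blood endothelium. Endocardial nuclei held 9.45 to 14.5 CPM of Dll4. Jag2 was more exclusive still, with 109, 99.3 and 110 CPM in endothelial nuclei and at most 22.1 CPM in any other named class. Dll1, the rarest ligand with 315 UMIs over all nuclei, was at 31.9, 46.6 and 51.4 CPM in endothelial nuclei, which held 73.3% of its UMIs. Its range there overlapped with that of lymphatic nuclei, at 26.6, 15.3 and 37.0 CPM.

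Jag1 was the ligand of the vessel wall rather than of its lining alone. It was at 279, 232 and 275 CPM in pericyte-like nuclei. Smooth muscle-like nuclei were at 268, 307 and 233 CPM of Jag1, and the ranges overlapped. Endothelial nuclei followed at 126, 138 and 120 CPM, and then endocardial nuclei at 118, 87.8 and 94.6 CPM. Fibroblasts had 81.1, 71.7 and 57.7 CPM of Jag1 and, being many, held 33.0% of its UMIs.

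The 2 targets were sparse. Hey2, a repressor known from arterial and ventricular identity, was highest in smooth muscle-like nuclei, at 97.3, 43.8 and 42.3 CPM, from only 4 or 5 UMIs a library. Its Poisson interval in WT ran from 26.5 to 249 CPM, so the libraries could not be told apart at this depth. Pericyte-like nuclei were at 22.6 to 47.2 CPM of Hey2, an overlapping range. The interval of the smooth muscle to pericyte ratio held 1 in each library. Most Hey2 UMIs, 64.2% of 561, lay in cardiomyocytes, at 21.4, 22.6 and 19.2 CPM. Hey1, a close relative of Hey2, had 68 UMIs in all 24664 nuclei, of which 38 were endothelial. Its level was 8.16, 8.78 and 5.48 CPM in endothelial nuclei and 10.3, 3.88 and 10.2 CPM in mural nuclei, so neither class was higher in every library.

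Within the endothelium, most members were higher in arterial-like than in venous-like nuclei. Reclustering without the pathway genes gave 2 subclusters with raised arterial markers (532 nuclei led by Dkk2 and Bmx, and 791 led by Btnl9), 2 with raised venous markers (1180 led by Selp and 1067 led by Igfbp5) and 1354 unnamed nuclei led by Kit, with 17 dividing nuclei apart. The arterial-like subclusters had 7 and 5 arterial markers raised. Each venous-like subcluster had 3 venous markers raised, the fewest that give a name. Dll4 was at 222, 180 and 190 CPM in nuclei of the arterial-like pair, against 24.5, 34.6 and 45.0 CPM in the venous-like pair. The fold was 9.06 (exact interval 5.27 to 16.4), 5.20 (3.37 to 8.27) and 4.23 (2.93 to 6.17). Notch1 was higher in arterial-like nuclei by 2.05-fold (1.62 to 2.61), 2.22-fold (1.77 to 2.79) and 1.94-fold (1.59 to 2.35). Notch4 followed with 2.03-fold (1.55 to 2.65), 2.12-fold (1.71 to 2.63) and 1.93-fold (1.53 to 2.44). Over the pairs, both endothelial receptors and Dll4 were thus higher on the arterial side in each library. The single subclusters did not all follow. In DMD the share of nuclei with a Notch4 UMI, thinned to 500 UMIs, was 8.16% in the Btnl9 subcluster. It was 8.37% in the Igfbp5 subcluster and 13.1% in the Kit subcluster.

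Over the pairs, the Jagged ligands showed the same side. Jag1 was 2.02-fold (1.44 to 2.85), 2.77-fold (2.08 to 3.71) and 1.92-fold (1.44 to 2.54) higher in arterial-like than in venous-like nuclei. Jag2 was 2.15-fold (1.45 to 3.19), 3.21-fold (2.21 to 4.72) and 2.50-fold (1.85 to 3.38) higher. The subcluster led by Dkk2 and Bmx was highest, with Jag1 at 382, 322 and 310 CPM and Jag2 at 237, 224 and 310 CPM. The subcluster led by Btnl9 had 100, 202 and 140 CPM of Jag1, against 108, 94.8 and 109 CPM in the venous-like pair. In WT the Btnl9 subcluster was thus not above the venous-like pair in Jag1. The 2 arterial-like subclusters did not overlap in Jag1 but did in Dll4, at 199, 161 and 203 CPM in the first and 239, 199 and 182 CPM in the second. The unnamed subcluster led by Kit lay between arterial and venous nuclei in Dll4, at 103, 116 and 106 CPM.

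The targets were seen in few nuclei. Hey1 gave 11, 14 and 10 UMIs in arterial-like nuclei and 0, 1 and 0 UMIs in venous-like nuclei, although these were 2247 against 1323. The exact lower bounds of its ratio were 5.60-fold in WT and 5.42-fold in DMD, and in BMD the ratio was 19.3 with an interval of 2.93 to 814. Hey2 gave 8, 11 and 5 UMIs against 1, 4 and 2, with an interval in DMD of 0.990 to 63.5-fold, and 8, 10 and 5 of its arterial-like UMIs were in the subcluster led by Dkk2 and Bmx. Dll1 was the exception among the endothelial ligands. Its arterial to venous ratio was 0.616 (0.243 to 1.38), 1.01 (0.624 to 1.62) and 0.806 (0.474 to 1.32), and its level was high both in the Dkk2 subcluster, at 61.1, 70.1 and 67.6 CPM, and in the venous-like subcluster led by Igfbp5, at 47.3, 77.6 and 84.8 CPM. In all, 7 of the 10 members were higher in arterial-like nuclei in all 3 libraries, the exceptions being Notch2, Notch3 and Dll1, beside 19.5% of 11262 genes with at least 10 UMIs in these subclusters. With the intervals above 1 in all 3 libraries, 6 members remained, without Hey2, beside 4.01% of genes. The genes other than the pathway's could enter the clustering, so these shares only describe the subclusters.

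**Figure D2:**
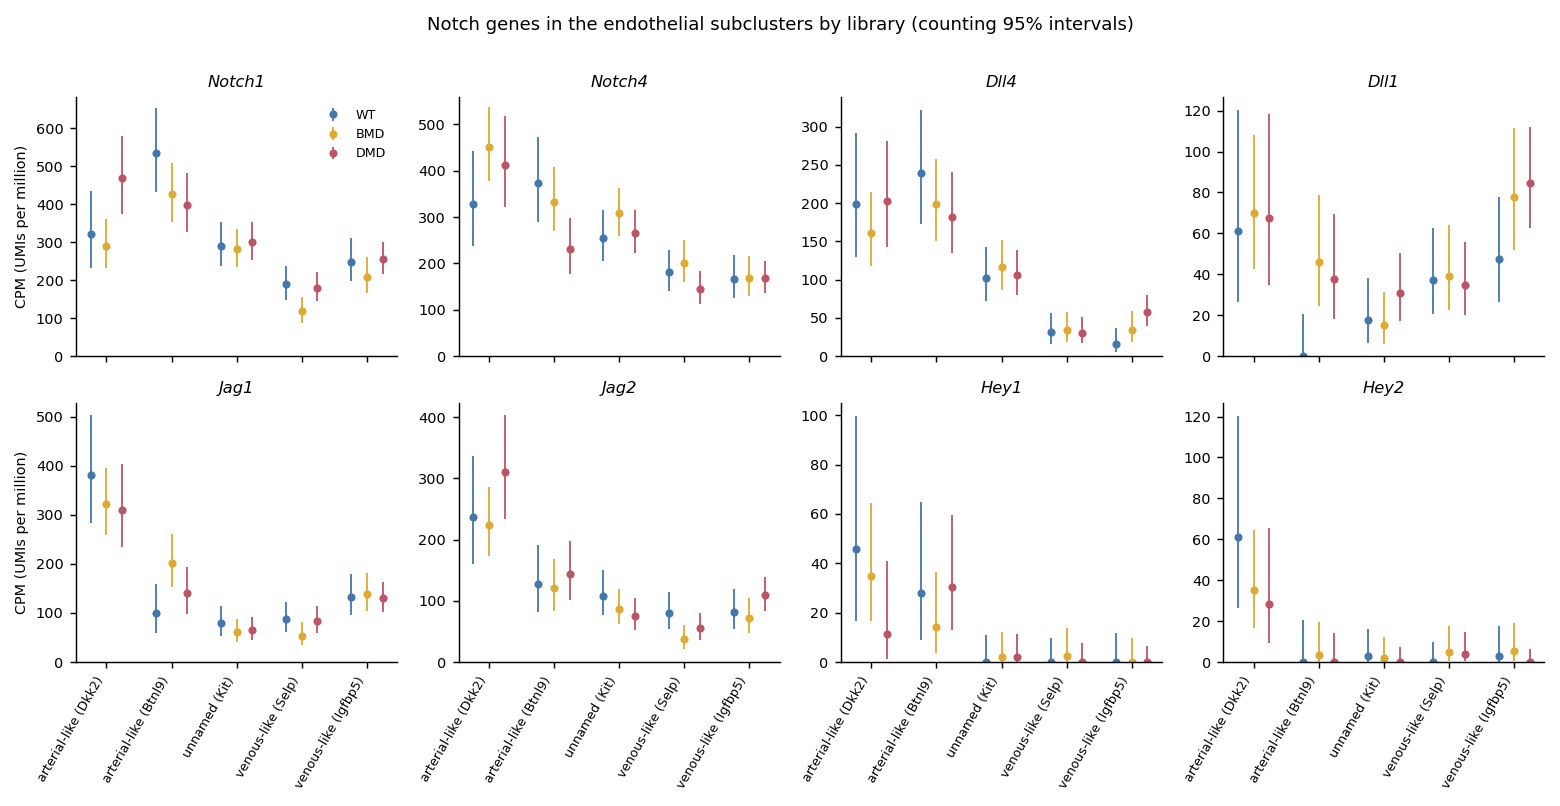
Level of 8 members in CPM (vertical axis) in 5 endothelial subclusters, named from markers that hold no member, with 1 point per library (WT blue, BMD yellow, DMD red) and exact Poisson 95% intervals. Over the arterial-like pair Dll4 is 4.23 to 9.06-fold higher than over the venous-like pair, and Notch1, Notch4, Jag1 and Jag2 are 1.92 to 3.21-fold higher. Dll1 is high both in the Dkk2 and in the Igfbp5 subcluster.

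Pericyte-like and smooth muscle-like nuclei had overlapping levels of Notch3 and Jag1. The smooth muscle to pericyte ratio of Notch3 was 0.918 (0.669 to 1.23), 0.890 (0.703 to 1.12) and 0.945 (0.754 to 1.17). The Notch2 ratio was 1.62 (0.741 to 3.16), 1.63 (1.0002 to 2.61) and 0.975 (0.511 to 1.75), with no shared direction over the libraries. The Notch1 ratio was 0.378 (0.0764 to 1.14), 0.347 (0.121 to 0.812) and 0.385 (0.170 to 0.767), with an interval that held 1 in WT. Notch4 gave 0, 2 and 1 UMIs in smooth muscle-like nuclei against 55, 20 and 26 in pericyte-like nuclei, and the upper bounds of its ratio were 0.751, 1.12 and 0.822. The 9 endothelial markers summed to 106, 132 and 308 CPM in pericyte-like nuclei, against 9926 to 10583 CPM in endothelium.

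The comparison between genotypes asks whether the members differed in a given class once cell numbers were set aside. A gene was compared where it had at least 50 UMIs over both libraries of a class, and it passed the fold rule when it differed by at least 1.5-fold with its counting interval on 1 side of 0. Over 7 classes, 25 pairs of member and class could be compared for BMD against WT and 29 for DMD against WT. Passing were 3 and 3 of them: Notch4 in mural and Jag2 in cardiomyocyte nuclei in both, Notch2 in endothelial nuclei in BMD, and Dll1 in endothelial nuclei in DMD. These are 12% and 10.3% of the pairs, near the 13.3% and 11.9% of all pairs of gene and class that passed the rule in the same classes. The others stayed within 1.5-fold or had an interval that reached 0. Of the 10 members, 7 could be compared in endothelial nuclei, 5 in mural, and at most 5 in any other class.

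In endothelial nuclei Dll1 had 43, 85 and 103 UMIs. The log2 ratio of DMD to WT was 0.69 (0.16 to 1.24), higher past the fold rule, as were 3.95% of all genes in that comparison. With nuclei of at least 1000 UMIs it was 0.61 and did not pass, and the thinned shares of nuclei with a Dll1 UMI overlapped, at 1.43% in WT (0.899 to 2.16%) and 2.11% in DMD (1.51 to 2.86%). The log2 ratio of BMD to WT was 0.55 (0.0021 to 1.11) and stopped short of 1.5-fold, and 3.65% of all genes were higher past the rule there. WT was the lowest library in the venous-like subcluster led by Igfbp5 and in the arterial-like subcluster led by Btnl9, where it had 0 Dll1 UMIs against 13 in BMD and 10 in DMD. Notch2 had 50, 33 and 54 UMIs in endothelial nuclei. Its log2 ratio of BMD to WT was -1.03 (-1.72 to -0.37), lower past the rule as were 6.07% of genes but not with nuclei of at least 1000 UMIs (-0.88), and in DMD it was -0.46 (-1.04 to 0.12), where 3.04% of genes were lower past the rule. The 9 markers of fibroblasts, which are rich in Notch2, summed to 759, 532 and 1302 CPM in endothelial nuclei, and their part in the Notch2 values was not tested.

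The other endothelial members kept close to WT. Notch4 was the widest of them, with a log2 ratio of 0.25 (0.04 to 0.46) in BMD and -0.12 (-0.34 to 0.09) in DMD. Notch1 was at -0.19 (-0.39 to 0.01) in BMD and -0.02 (-0.21 to 0.17) in DMD. Dll4, Jag1 and Jag2 lay between -0.14 and 0.15 in both comparisons, with intervals that held 0. Subcluster shares differed beside these values: nuclei of the arterial-like subcluster led by Dkk2 and Bmx were 8.65%, 15.4% and 8.81% of all endothelial nuclei. With the subclusters weighted to their WT shares, an alternative chosen after seeing the data, Dll1 in DMD was at 0.62 and Notch2 in BMD at -1.07. The number of members past the rule was 3 in each comparison, and the share of all genes under that weighting is not given here. The median log2 ratio of the 7 members was 0.13 in BMD and -0.02 in DMD, beside -0.04 and -0.0089 over all genes.

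In mural nuclei Notch4 had 88, 33 and 37 UMIs, or 129, 63.9 and 62.9 CPM. The log2 ratio was -1.02 (-1.64 to -0.42) in BMD and -1.04 (-1.64 to -0.47) in DMD, lower past the rule like 5.95% and 4.56% of all genes. Higher past it were 4.7% and 5.05% of genes, and 0 members. The endothelial markers in mural nuclei summed to 728, 671 and 937 CPM, highest in DMD. In a subcluster of 109 mural nuclei, 64.2% of them predicted doublets, they summed to 5805, 5764 and 5252 CPM. In pericyte-like nuclei alone the log2 ratio of Notch4 was -0.94 (-1.75 to -0.18) in BMD and -0.66 (-1.39 to 0.04) in DMD. Its thinned share of mural nuclei was 5.70% (4.10 to 7.68%), 2.47% (1.24 to 4.37%) and 2.75% (1.51 to 4.56%). In pericyte-like nuclei alone the share was 4.91% (3.26 to 7.06%), 2.94% (1.35 to 5.51%) and 3.57% (1.92 to 6.03%), with intervals that overlapped. Thinned to 1000 UMIs, with shallower nuclei left out, it was 12.8%, 7.09% and 14.0% there, so DMD was not below WT.

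Notch3, the main mural receptor, differed less. Its log2 ratio was -0.31 (-0.48 to -0.13) in BMD, below WT beyond counting error but within 1.5-fold, and -0.10 (-0.26 to 0.06) in DMD. In pericyte-like nuclei it was -0.37 (-0.57 to -0.17) and -0.11 (-0.30 to 0.08), and in smooth muscle-like nuclei -0.41 (-0.92 to 0.11) and -0.07 (-0.58 to 0.45). Jag1, with 167, 118 and 144 UMIs, was at -0.10 (-0.46 to 0.25) and -0.0042 (-0.34 to 0.33). Notch1 in mural nuclei was at -0.38 (-0.83 to 0.06) and 0.21 (-0.17 to 0.59). Smooth muscle-like nuclei were 6.41%, 21.5% and 14.7% of mural nuclei. Fewer than 50 UMIs left Dll4 outside the comparison, with 13, 3 and 1 UMIs.

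In cardiomyocytes Jag2 had 50, 31 and 11 UMIs, or 7.87, 4.68 and 2.86 CPM. The log2 ratio was -0.75 (-1.45 to -0.08) in BMD and -1.46 (-2.55 to -0.50) in DMD, lower past the rule as were 8.54% and 9.46% of all genes, with 7.48% and 8.37% higher. These levels were a small part of those in endothelium, and free RNA would give 0.988, 1.95 and 2.27 CPM of Jag2 in cardiomyocytes. Thinned to 500 UMIs, the shares of cardiomyocytes with a Jag2 UMI were 0.394% (0.170 to 0.775%), 0.263% (0.0717 to 0.672%) and 0.0949% (0.0024 to 0.527%). Their intervals overlapped. Endothelial markers in cardiomyocytes summed to 111, 163 and 186 CPM, and the part of endothelial RNA in the Jag2 values was not tested. Hey2, with 136, 150 and 74 UMIs, was at 0.08 (-0.26 to 0.43) in BMD and -0.15 (-0.58 to 0.26) in DMD, and Notch2 at 0.10 (-0.12 to 0.32) and -0.09 (-0.35 to 0.18).

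In fibroblasts 0 of 4 members compared passed the rule in BMD and 0 of 5 in DMD, and in macrophages 0 of 3 and 0 of 4. Of all genes in fibroblasts, 5.29% were higher and 9.2% lower past it in BMD, and 5.25% and 4.81% in DMD. In macrophages these shares were 5.41% and 8.84% in BMD, and 8.56% and 6.99% in DMD. So few members cannot be told apart from those shares. Notch2 in fibroblasts had 1435, 716 and 906 UMIs and log2 ratios of -0.27 (-0.40 to -0.14) in BMD and -0.18 (-0.31 to -0.06) in DMD, both off 0 and within 1.5-fold. Jag1 in fibroblasts was at -0.18 (-0.43 to 0.07) in BMD and -0.49 (-0.74 to -0.24) in DMD. Fibroblasts formed 2 clusters, and the smaller, led by Ltbp2 and Tnc, held 7.11%, 39.4% and 25.1% of fibroblast nuclei of WT, BMD and DMD. In that of 5960 nuclei Notch2 was at -0.36 (-0.53 to -0.19) and -0.32 (-0.47 to -0.18), and in that of 1464 nuclei at -0.20 (-0.48 to 0.09) and 0.05 (-0.23 to 0.34). Jag1 was at -0.14 (-0.46 to 0.17) and -0.52 (-0.82 to -0.23) in the first, and at -0.58 (-1.08 to -0.06) and -0.74 (-1.28 to -0.19) in the second. The last of these was past 1.5-fold with its interval off 0, in a cluster that the count over whole classes leaves out. Macrophage Notch2 was at -0.26 (-0.47 to -0.05) in BMD and -0.13 (-0.34 to 0.07) in DMD. Endocardial Notch1, with 39, 63 and 99 UMIs, was at 0.45 (-0.15 to 1.06) in BMD and 0.38 (-0.17 to 0.95) in DMD, both above 0 with intervals that held it. In lymphatic nuclei Notch1, with 65, 115 and 77 UMIs, was at -0.24 (-0.69 to 0.23) in BMD and -0.54 (-1.04 to -0.04) in DMD. Cardiomyocyte markers in lymphatic nuclei summed to 4216, 1735 and 3456 CPM, and their part in this ratio was not tested.

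**Figure D3:**
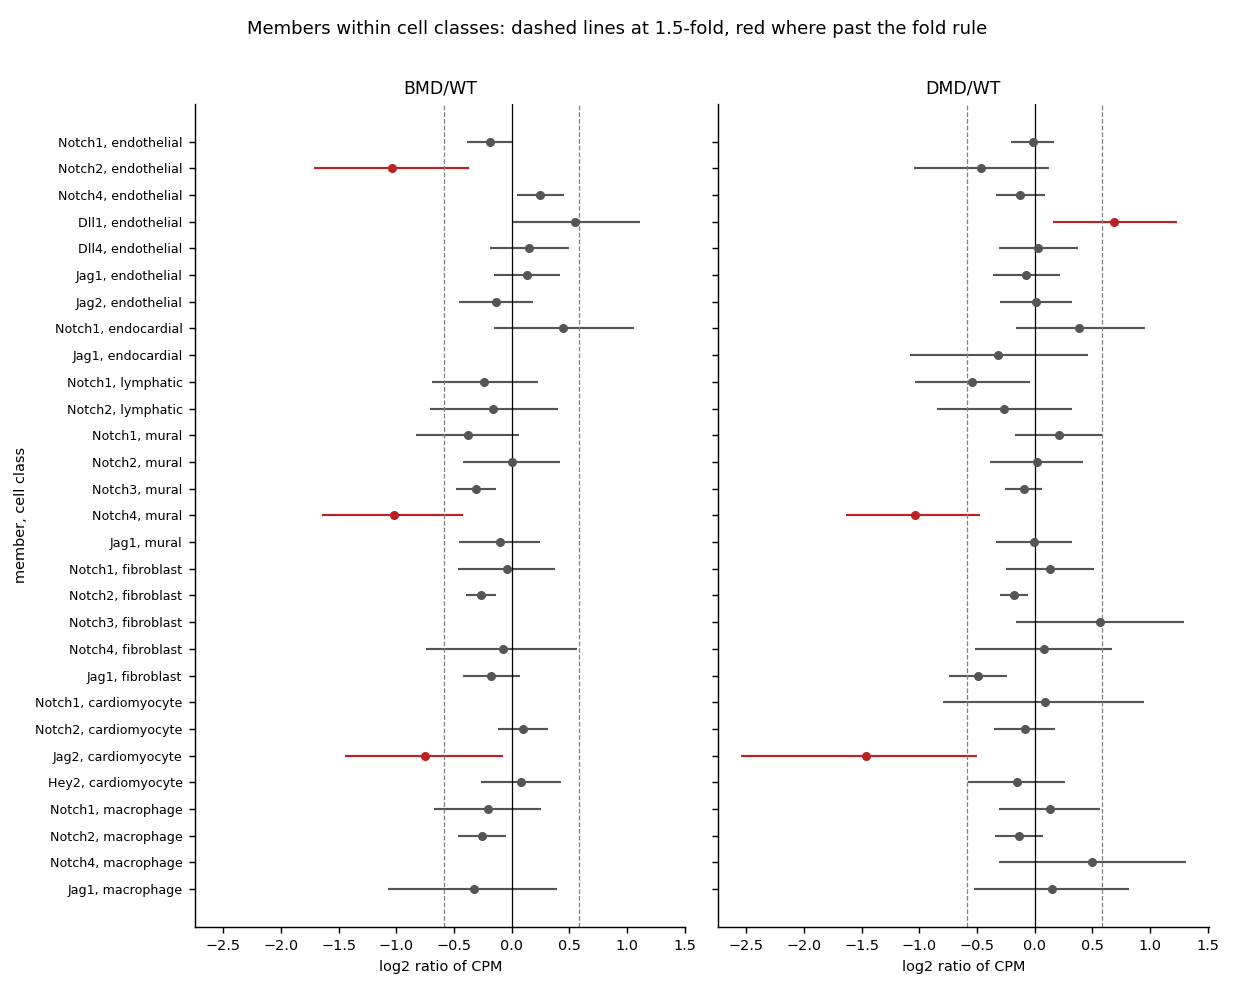
Log2 ratio of CPM (horizontal axis) for each pair of member and class with at least 50 UMIs, BMD against WT on the left and DMD against WT on the right, with exact conditional binomial 95% intervals. Red points pass the fold rule: 3 on each side, Notch4 in mural and Jag2 in cardiomyocyte nuclei on both, with Notch2 in endothelial nuclei in BMD and Dll1 in endothelial nuclei in DMD.

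Over all nuclei the ratios differed from those within classes. Endothelial nuclei made up 15.4%, 22.2% and 24.0% of all nuclei. Cardiomyocytes, with median depths of 2761.5, 3768 and 3267 UMIs, made up 20.4%, 22.3% and 13.4%. The part of each share in the ratios was not tested. In BMD against WT, Notch1 was at 0.10 (-0.03 to 0.23) over all nuclei and at -0.19 (-0.39 to 0.01) in endothelial nuclei. In DMD against WT, the log2 ratio over all nuclei was 0.64 (0.52 to 0.76) for Notch1, against -0.02 in endothelial nuclei alone. Dll4 was at 0.76 (0.49 to 1.03) over all nuclei and at 0.03 (-0.31 to 0.37) in endothelium. Jag2 was at 0.54 (0.30 to 0.79) over all nuclei and at 0.01 (-0.30 to 0.32) in endothelium. Dll1 kept part of its difference, with 1.49 (1.07 to 1.93) over all nuclei and 0.69 within endothelium. Mural nuclei numbered 702, 446 and 510, or 7.05%, 6.55% and 6.46% of all nuclei. Notch3 over all nuclei was at -0.50 (-0.66 to -0.34) in BMD and 0.13 (-0.01 to 0.28) in DMD. Hey2, mostly of cardiomyocytes, was at -0.46 (-0.79 to -0.14) over all DMD nuclei and -0.15 within that class. With 1 library per genotype, a difference in the number of nuclei caught and a difference in the tissue cannot be told apart.

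**Figure D4:**
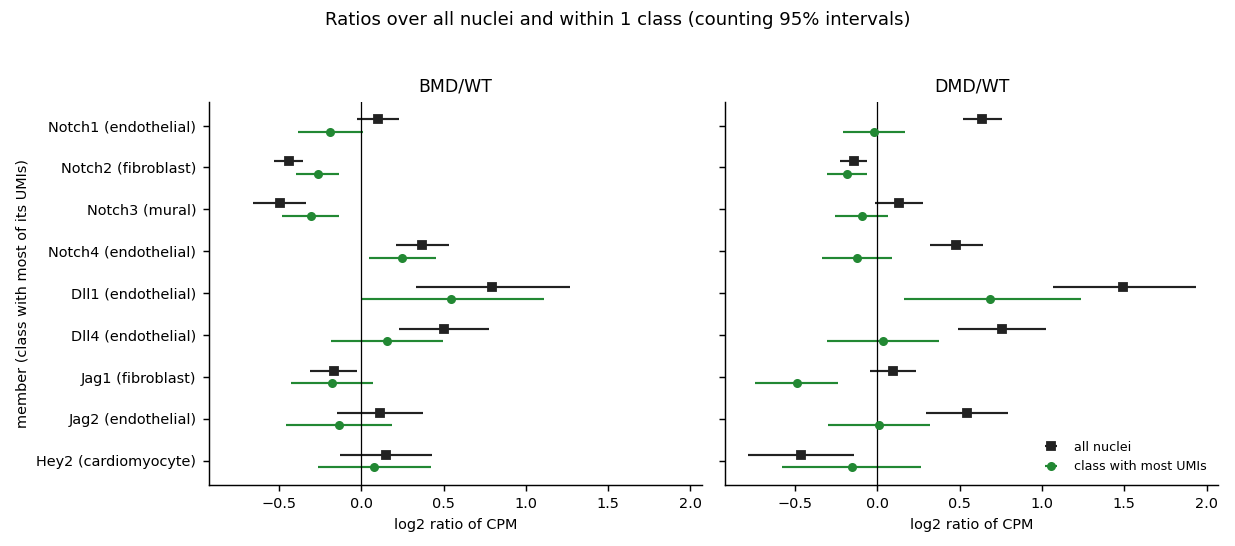
Log2 ratio of CPM (horizontal axis) for 9 members over all nuclei (black squares) and within the class that holds most of their UMIs (green circles, class named beside the gene), BMD against WT on the left and DMD against WT on the right, with exact conditional binomial 95% intervals. In DMD the endothelial members Notch1, Notch4, Dll4 and Jag2 lie above 0 over all nuclei and near 0 within endothelium.

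The rest of the pathway was read from a list of 50 other genes, of which 48 were found: other ligands, enzymes that cut or glycosylate the receptors, proteins of endocytosis and turnover, nuclear factors and other targets. Over the 7 classes, 25 of 185 pairs of gene and class passed the fold rule in BMD against WT (8 higher, 17 lower), and 22 of 188 in DMD against WT (9 higher, 13 lower). These shares of 13.5% and 11.7% are those of all genes, 13.3% and 11.9%. The medians of the list lay between -0.12 and 0.13 over these classes and comparisons, beside medians of all genes between -0.06 and 0.03. In endothelial nuclei Furin and Aph1a of 32 genes were lower in BMD, and Aph1b and Hes1 of 35 were higher in DMD. In mural nuclei 1 of 25 genes, Heyl, was lower in BMD, and 0 of 26 passed in DMD.

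Hes1, the target whose promoter is printed above, was at 37.8, 30.7 and 70.3 CPM in endothelial nuclei. Its log2 ratio of DMD to WT there was 0.89 (0.42 to 1.39). In cardiomyocytes Hes1 was instead highest in BMD, at 80.9 CPM against 37.8 in WT and 40.6 in DMD, with a log2 ratio of BMD to WT of 1.10 (0.88 to 1.32). In fibroblasts it was lowest in BMD, at 30.3 CPM against 47.6 and 56.5, with a ratio of -0.65 (-1.02 to -0.29), and in the larger fibroblast cluster alone it was -0.66 (-1.13 to -0.22). The smaller cluster had 7, 36 and 44 UMIs of Hes1. Free RNA would give at most 14.6 CPM of Hes1 in these 3 classes. Endothelial nuclei and fibroblasts thus shared an order of the libraries, with BMD lowest and DMD highest, and cardiomyocytes did not. Lymphatic nuclei had that order too, at 63.8, 38.3 and 83.2 CPM, where free RNA would give at most 21.9 CPM. Macrophages were at 13.2, 9.03 and 25.4 CPM. Free RNA would give 11.48 CPM in BMD macrophages, more than was seen, so the place of BMD cannot be read there. The order of the libraries was not tested in either class. Endocardial nuclei, at 52.0, 24.0 and 48.5 CPM, were lowest in BMD but highest in WT. Mural nuclei, at 45.6, 38.8 and 37.4 CPM, were lowest in DMD.

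Heyl, a Hey relative expressed in vascular smooth muscle, was at 356, 227 and 289 CPM in mural nuclei. Its ratio of BMD to WT was -0.65 (-0.98 to -0.33), lower past the rule. Fibroblasts also held Heyl, at 221, 117 and 223 CPM, and there too BMD was lower, by a ratio of -0.92 (-1.10 to -0.74), with -0.80 (-1.02 to -0.59) in the larger fibroblast cluster and -0.18 (-0.66 to 0.31) in the smaller. Heyl and Notch3 were thus both lowest in BMD among mural nuclei, Heyl past 1.5-fold and Notch3 not. Low Heyl in BMD was not confined to mural nuclei and fibroblasts. Endocardial nuclei had 61.4, 11.98 and 43.6 CPM of Heyl, and macrophages 39.7, 23.7 and 56.6 CPM. Lymphatic nuclei and T, NK or B cells were also lowest in BMD for Heyl. A link between Heyl and Notch3 in mural nuclei was not tested.

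**Figure D5:**
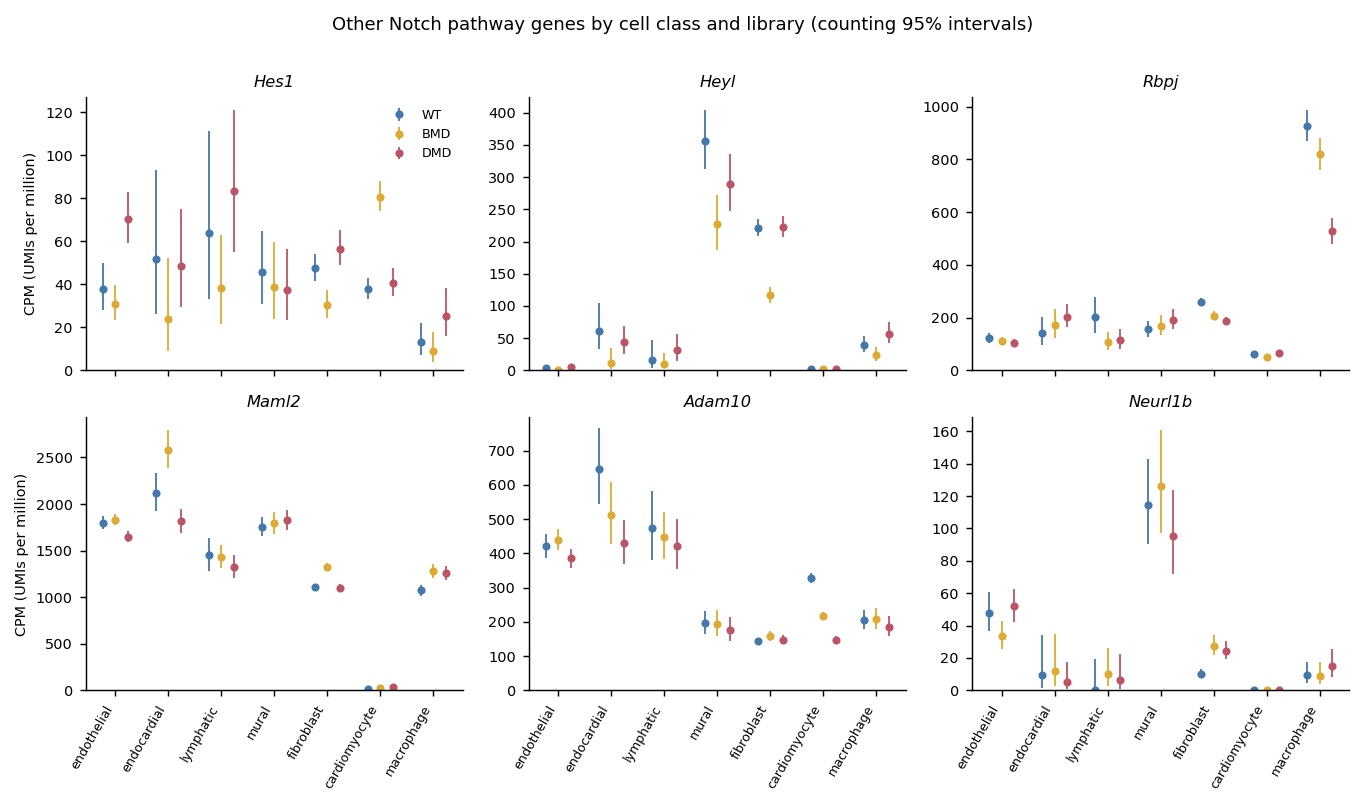
Level in CPM (vertical axis) of 6 other genes of the pathway in 7 classes, with 1 point per library (WT blue, BMD yellow, DMD red) and exact Poisson 95% intervals. Hes1 is highest in BMD among cardiomyocytes (80.9 CPM) and in DMD among endothelial nuclei (70.3 CPM). Heyl is lowest in BMD in mural nuclei and fibroblasts. It is also lowest in BMD in endocardial and lymphatic nuclei, with too few UMIs to compare, and in macrophages, without passing the fold rule. In lymphatic nuclei free RNA would give 14.3, 2.17 and 12.9 CPM of Heyl in WT, BMD and DMD.

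Both comparisons share the WT library, so a gene that is high or low there can pass in both. Of the list, 11 of 184 pairs of gene and class (5.98%) passed in the same direction in both, beside 5.07% of all pairs, and their values are given as a description. In fibroblasts, where 5.29% of genes were higher and 9.2% lower in BMD and 5.25% and 4.81% in DMD, Neurl1b, a ubiquitin ligase that acts on Notch ligands, was higher, with log2 ratios of 1.47 in BMD and 1.30 in DMD (9.93, 27.6 and 24.5 CPM). Dtx4, of the Deltex family that regulates Notch, was lower there, at -1.03 and -0.60, as was Aph1a, a subunit of the γ-secretase that cuts Notch, at -0.75 and -0.95. In the larger fibroblast cluster alone Neurl1b was at 1.29 (0.59 to 1.97) and 1.42 (0.81 to 2.03), Aph1a at -0.71 (-1.40 to -0.08) and -0.85 (-1.45 to -0.29), and Dtx4 at -0.97 (-1.35 to -0.62) and -0.41 (-0.68 to -0.15), where Dtx4 in DMD no longer reached 1.5-fold. In macrophages, where 5.41% of genes were higher and 8.84% lower in BMD and 8.56% and 6.99% in DMD, Aph1a was at -0.93 and -0.96 and its paralog Aph1b at 0.69 and 0.77. Aph1a was thus lower and Aph1b higher in the same nuclei, from 50, 22 and 21 UMIs of Aph1a and 74, 100 and 103 of Aph1b.

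In cardiomyocytes Adam10, the protease that makes the first activating cut in Notch, was at 329, 218 and 147 CPM. Its log2 ratios were -0.59 (-0.69 to -0.49) and -1.16 (-1.30 to -1.02), and Adam10 cuts many other surface proteins too. Dner, a non-canonical ligand, was at 22.4, 12.7 and 7.80 CPM, with ratios of -0.82 and -1.52. Maml2, a co-activator of the Notch complex, was higher, with ratios of 1.02 and 1.34, at 14.2, 28.8 and 35.9 CPM. The other 6 classes compared held Maml2 at 1072 to 2583 CPM, and the part of their RNA in the cardiomyocyte values was not tested.

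In the smaller classes, Rbpj, the DNA-binding protein of the pathway, was lower in lymphatic nuclei, at -0.91 and -0.82, where 4.78% of genes were higher and 7.04% lower in BMD and 4.35% and 4.89% in DMD. In macrophages Rbpj was at 928, 819 and 527 CPM, with a ratio of -0.82 (-0.98 to -0.66) in DMD. In endocardial nuclei Spen, a co-repressor that binds RBPJ, was higher, at 1.34 and 1.01, from 13, 39 and 51 UMIs. Background shares in endocardial nuclei were 7.28% higher and 6.88% lower in BMD and 5.31% and 4.85% in DMD.

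The genes whose levels over the 9 classes in the 3 libraries were most like those of each member were sought among 11331 genes with at least 200 UMIs, by Pearson's r of log2(CPM + 10) over 27 points. These points share classes and libraries, so r is a description. For Notch3 they were Mrvi1 (r = 0.963), Lrrc4c (0.960) and Cox4i2 (0.95). Dll4 was most like Sh3tc2 (0.945), Eva1a (0.944) and the caveolin gene Cav2 (0.939), and Dll1 was most like Fam110d (0.95), the venous ephrin receptor Ephb4 (0.929) and Nova2 (0.928). Jag2 was most like Cd300lg (0.946), Unc5c (0.933) and Prom1 (0.932), and Jag1 like Cyp7b1 (0.956), Afap1l2 (0.944) and Ebf1 (0.941). Notch1 was most like Cbfa2t3 (0.949), Elk3 (0.948) and Rgs3 (0.947), and Notch4 like Fam117b (0.925), Cadps2 (0.906) and Tspan7 (0.906). Notch2 was most like Gas7 (0.916), Colec12 (0.856) and Dpp7 (0.843). Hey2, found in mural nuclei as well as in cardiomyocytes, had lower values, with Adgra3 (0.85), Frem2 (0.838) and Pkdcc (0.838). Hey1 had too few UMIs for this comparison.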

How the data were processed

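Nuclei of rat heart apex (1 library each of WT, BMD and DMD) were sorted and run on the 10x Genomics 3′ v3.1 kit per the labels and methods; the results text of the study names 5′ chemistry instead. The authors aligned with Cell Ranger to rn6 per the labels (version 6.0.1 for the WT file and 4 for the others, per the file headers; intron counting is not given in the sources used here), and deposited raw UMI counts per gene. WT counts were read from an aggregate of the 3 libraries (barcode suffix 3). In it the BMD and DMD libraries had been thinned to 76.1% and 92.9% of their own counts, so their own files were used; whether WT was thinned there too is not given in the sources used here, and its depths and unthinned shares are those of the aggregate.

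From each library the study's stated number of nuclei was kept, by descending UMI count (WT 9964, BMD 6810, DMD 7890; at least 513 UMIs). Clustering used scanpy 1.11.5 and igraph 0.11.9 (Leiden, resolution 0.5, on 15 neighbours in 30 principal components of 2000 variable genes), leaving out mitochondrial genes, members and pathway genes; doublets were kept. A cluster was named from at least 3 markers raised 2-fold (CPM + 5), and left unnamed where a class of another family (vessel lining, mural, myeloid or other) also had 3 or led its top 10 genes, a rule set after seeing the data. Counts were summed per class and library. Intervals are exact Poisson, conditional binomial or Clopper-Pearson (scipy 1.17.1). Free RNA came from barcodes with at most 50 UMIs, scaled by markers a class should lack. With 1 library per genotype there is no test and no replicate. Ratios were tested on simulated data. TMM factors came from edgeR 4.0.16.

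Named are the 10 members, pathway genes past the rule in both comparisons of a class, and the 3 genes most like each member; Hes1, Heyl, Furin and Rbpj in macrophages were added after their values were seen. The result of 1 pathway gene that met the rule is not reported here. Members and lists were chosen with earlier results of these data known. Promoter sequences are RefSeq's (GRCr8), matched by symbol; the files' build differs, so no gene coordinates of theirs are given.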

Additional observations from a re-analysis of the deposited data

Results flagged for a closer look

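Hes1 passed the fold rule in opposite directions in 2 classes of the same comparison. In BMD against WT its log2 ratio was 1.10 (0.88 to 1.32) in cardiomyocytes and -0.65 (-1.02 to -0.29) in fibroblasts, whose clusters differ in share between the libraries. The difference between the classes was not tested, since each ratio rests on 1 library per genotype. No member of the group did this in either comparison, but the 3 pairs of member and class that passed in each were of different members. The share of all genes that did this is not given here.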

How the results depend on the processing

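No paired analysis was possible because each genotype has 1 library, and for the same reason no replicate could be left out. None of the 12 ratios of members recomputed changed direction under the alternatives run. The number of members past the fold rule, 3 in each comparison, became 5 in BMD and 6 in DMD with predicted doublets removed, 5 in BMD with nuclei of at least 1000 UMIs, 1 in BMD with genes of at least 100 UMIs, 6 in BMD and 5 in DMD with no minimum, and 6 in DMD with free RNA subtracted. For the pathway list, 2-fold in place of 1.5-fold left 6 of 25 in BMD and 10 of 22 in DMD, and a minimum of 100 UMIs left 14 in DMD. The share of all genes that passed under each alternative is not given here, so these counts cannot be set against a background. The cause of these moves was not tested, apart from the minimum, which changes how many genes are compared, and the fold. Of the ratios past the rule, Notch4 in mural nuclei passed under the alternatives run for the class (-1.16 to -0.92 in BMD, -1.17 to -0.84 in DMD), but in pericyte-like nuclei alone the DMD ratio was -0.66 (-1.39 to 0.04) and did not pass. Dll1 in endothelium of DMD (0.61 to 0.77), Notch2 in endothelium of BMD (-1.99 to -0.88) and Jag2 in cardiomyocytes (-1.29 to -0.53 in BMD, -3.52 to -1.36 in DMD) each stopped passing under at least 1, in DMD for Jag2 only with the minimum of 100 UMIs. Dll1 and Notch2 did so with nuclei of at least 1000 UMIs, at 0.61 and -0.88. Notch1 in lymphatic nuclei of DMD (-0.78 to -0.44) passed under 5 alternatives. Weighting endothelial subclusters to their WT shares, keeping only the named mural subclusters and using the thinned counts of the aggregate were alternatives chosen after seeing the data. At resolution 0.3 of the endothelial subclusters, 9 members in place of 7 were higher in arterial-like nuclei in all 3 libraries. The share of all genes at that resolution is not given here.

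Shares of nuclei with a UMI rose with depth. Unthinned, Notch4 was seen in 17.3%, 26.0% and 19.7% of endothelial nuclei of WT, BMD and DMD, and Notch3 in 60.3%, 54.9% and 58.4% of mural nuclei. Thinned to 1000 UMIs, with shallower nuclei left out, the shares were 18.8%, 22.2% and 17.7% for Notch4 and 59.0%, 50% and 56.4% for Notch3. Counts below 50 UMIs, as for Hey1 in all classes and Dll4 outside endothelium, left most members uncompared in the smaller classes.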
